A study of Mus musculus with 38 samples.

Results

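The 10 genes described here are C1qa, C1qb, C1qc, Adgre1, Csf1r, Cd68, Mrc1, Cd163, Apoe and Cyba, a group of macrophage, complement and lipoprotein genes followed through 37 of 38 RNA sequencing libraries of mouse intestinal tract. They were listed by symbol, and each symbol matched 1 Ensembl identifier among the 55416 genes of the count tables. Apoe and Cyba were chosen by their lower levels in Apc libraries on black rice, so all values of that comparison are given as a description without a test. All 10 genes passed the filter on low counts in each of the 3 sets.

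The series asked how a black rice diet and a control diet differ in the gut of mice with colorectal cancer. The Apc set held 18 libraries, with black rice, control and WT arms of 3 libraries coded F and 3 coded M each. In the AOM set each diet had 3 libraries per code and there was no WT arm. The third set had 4 libraries labelled black rice and 4 labelled control, without a code. The labels gave no allele, strain, age, dose or feeding time, gave the WT libraries no treatment, and did not spell out AOM, F, M or the model of the third set. The name of the third set's table carries the letters FMT, also not spelled out, so black rice and control in that set are the labelled treatments, and whether those mice ate the diets themselves was not stated. For that set, "diet", "on black rice" and "on control diet" below name the labelled groups only. Nothing in the labels said whether libraries of a group came from separate animals, so p-values measure the spread between libraries, which may be technical. The sets were normalised separately, and levels set side by side across them carry that limit.

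Total counts ran from 44.8 to 61.9 M in the Apc set and from 66.6 to 91.1 M in the third set. The AOM libraries used here held 37.9 to 55.1 M counts. An AOM library, replicate 3 of black rice F, held 5.37 M counts and stood apart, with the albumin gene Alb at 166015 CPM (counts scaled to library size) against at most 80.6 CPM in any other AOM library. The rule for the 10 genes leaves it out. Values with all 12 libraries are given for the 10 genes together and for the genes whose diet difference changed sign. All 24 markers on a list of macrophage identity were detected in the Apc set, and their summed level ran from 807 to 1568 CPM in single Apc libraries, from 933 to 1704 CPM in the 11 AOM libraries and from 746 to 1280 CPM in the third set.

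Macrophages of the gut wall take up cell debris and microbes, and they depend on the receptor encoded by Csf1r for survival. They are a main source of C1q, the recognition protein that starts the classical complement pathway and is built from the chains encoded by C1qa, C1qb and C1qc. Adgre1 and Cd68 mark macrophages broadly, whereas Mrc1 and Cd163 encode scavenger receptors that are strongest on resident and perivascular macrophages. In bulk tissue, fewer cells of a type and less RNA per cell cannot be told apart.

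The C1q genes lie together on mouse chromosome 4, and their transcripts varied together across these libraries. The 250 bases before the start of C1qb and C1qc are shown beside those of Cd163. The correlation of Cd163 with C1q within groups was 0.61 in the Apc set and -0.25 in the third set. It was -0.56 in the AOM set, where Cd163 was low. The windows come from RefSeq (build GRCm38.p6), which held promoters for 7 of the 10 genes. Capitals mark AGGAAGT, the core letters bound by PU.1 and other ETS factors, found on the opposite strand.
C1qb, chr4:136886201-136886450, minus strand: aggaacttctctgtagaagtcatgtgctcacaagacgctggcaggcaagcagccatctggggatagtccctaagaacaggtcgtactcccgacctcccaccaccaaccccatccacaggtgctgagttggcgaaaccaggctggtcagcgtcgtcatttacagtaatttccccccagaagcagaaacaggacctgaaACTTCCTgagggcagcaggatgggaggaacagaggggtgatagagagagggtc
C1qc, chr4:136892915-136893164, minus strand: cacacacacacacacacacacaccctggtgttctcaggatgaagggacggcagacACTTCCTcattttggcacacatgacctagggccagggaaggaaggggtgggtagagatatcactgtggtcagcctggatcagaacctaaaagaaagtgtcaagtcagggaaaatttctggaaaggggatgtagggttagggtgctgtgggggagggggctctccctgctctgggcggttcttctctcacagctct
Cd163, chr6:124304401-124304650, plus strand: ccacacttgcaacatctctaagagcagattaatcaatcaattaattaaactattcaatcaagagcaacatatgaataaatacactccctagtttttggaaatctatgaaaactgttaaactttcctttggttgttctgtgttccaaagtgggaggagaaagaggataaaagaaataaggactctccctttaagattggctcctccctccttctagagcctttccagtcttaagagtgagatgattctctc
Both strands of the 300 bases around each start were searched. The match began at position -53 from the start in C1qb and at -195 in C1qc, and a further match began at -211 in Mrc1. The letters stood in 3 of the 7 genes and in 9.35% of 32851 promoters of the same length. Cd68, Apoe, Cyba and Cd163 held no match. The correlations of Cd68, Apoe and Cyba with C1q were 0.92, 0.85 and 0.59 in the Apc set and 0.73, 0.90 and 0.70 in the third set. Those of Mrc1, which held a match, were 0.83 and 0.25. Whether the match goes with the correlation was not tested. TGCTGA, a half-site of MAF factors, stood in C1qb alone among the 7 and in 19.5% of those promoters. It did not overlap the first motif.

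Per kilobase of exon, Apoe was the most abundant of the 10 transcripts in every set, at 176 ± 50.2 CPM per kb in the Apc set (SD, n = 18). Apoe encodes a lipid-carrying apolipoprotein made by macrophages and by other cells such as hepatocytes. C1qb (62.3 ± 21.6 CPM per kb) and C1qa (56.3 ± 18) came next in the Apc set and were closer to each other than their SDs. They were followed by Cyba (33.8 ± 9.52 CPM per kb), C1qc (22.5 ± 8.47) and Cd68 (11.1 ± 3.94). Csf1r (5.37 ± 1.75 CPM per kb), Mrc1 (4.52 ± 1.73), Adgre1 (3.70 ± 1.71) and Cd163 (2.04 ± 1.23) were lowest. Each of Csf1r, Mrc1 and Adgre1 lay within its own SD of the next gene in that order. In the AOM set Cyba stood second at 77.6 ± 22.2 CPM per kb (n = 11), above C1qb at 52.0 ± 29.3. The level of Cd163 was 2.04 CPM per kb in the Apc set, 0.579 ± 0.205 in the third set (n = 8) and 0.0975 ± 0.0495 in the AOM set.

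**Figure D1:**
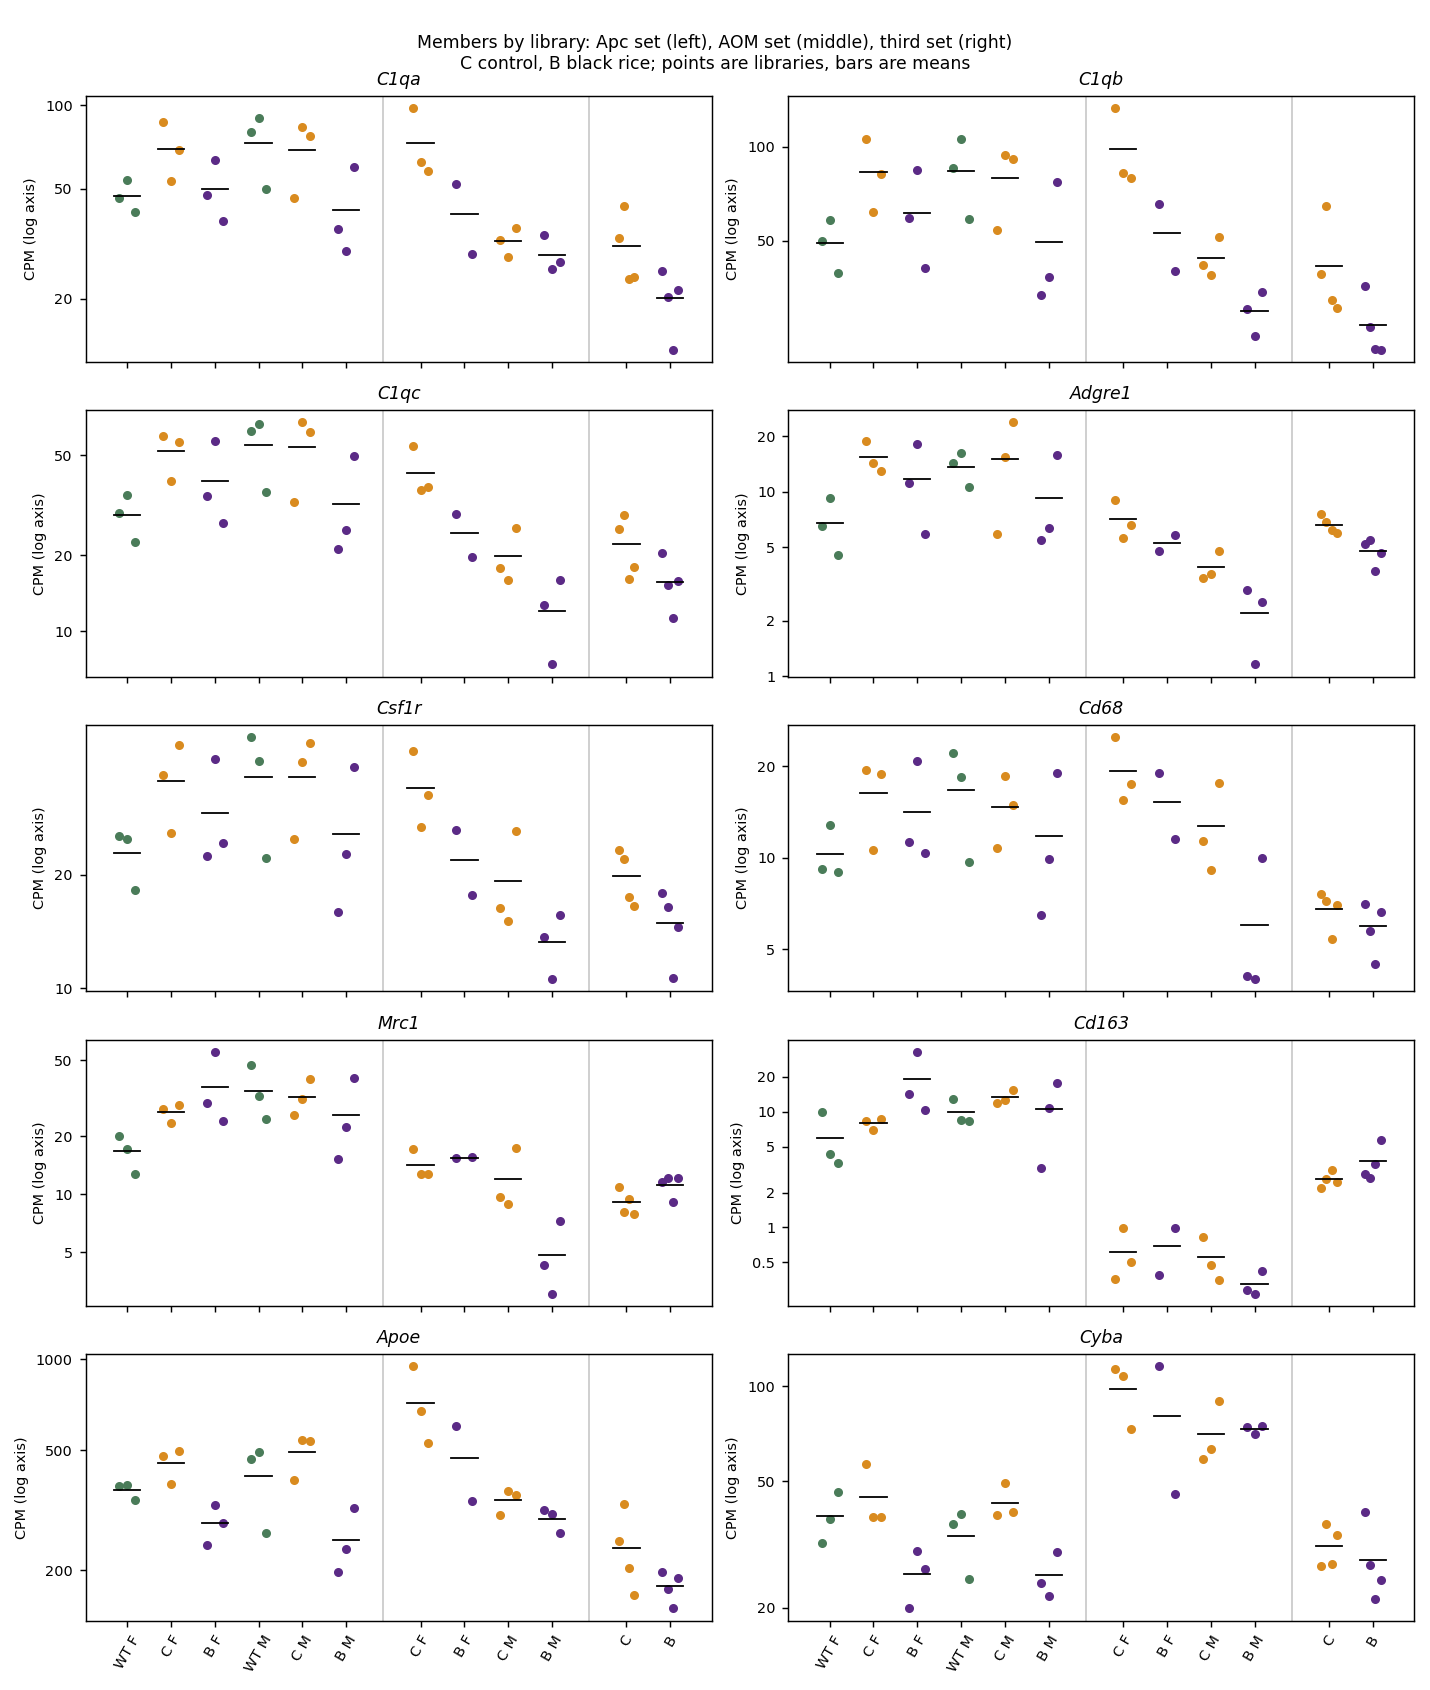
Normalised counts (CPM, log axis) of the 10 genes in each of 37 libraries, grouped by arm and code within the Apc set, the AOM set and the third set, with bars at group means. Cd163 lies between 0.267 and 0.991 CPM in the AOM libraries and between 3.24 and 33.0 CPM in the Apc libraries.

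In the libraries labelled black rice, the 3 C1q genes had lower mean levels than in control libraries in all 3 sets, with log2 differences between -0.76 and -0.49. No C1q gene passed an adjusted p of 0.05 in the sets where the rule allows a test. In the Apc set C1qb (ENSMUSG00000036905), which encodes the B chain, measured 59, 84.4 and 40.8 CPM in the black rice F libraries and 106, 61.9 and 82.0 CPM in the control F libraries. The black rice M libraries gave 33.6, 38.3 and 77.1 CPM and the control M libraries 54.0, 93.7 and 91.3 CPM. One black rice library of each code, replicate 2 of F and replicate 3 of M, lay among the controls, and the diets overlapped. Over both codes the difference was -0.56 (SE 0.24), from 81.4 ± 19.8 to 55.5 ± 21.5 CPM (SD, n = 6 each). C1qa (ENSMUSG00000036887) differed by -0.60 (SE 0.21) and C1qc (ENSMUSG00000036896) by -0.58 (SE 0.26).

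In the AOM set the C1q differences were negative within each code, but C1qa and C1qc overlapped between the diets within M. C1qb measured 65.7 and 40.1 CPM in the black rice F libraries against 133, 82.6 and 79.4 CPM in the control F libraries. In M libraries it measured 30.2, 24.8 and 34.4 CPM on black rice and 42.0, 39.0 and 51.4 CPM on control diet. For C1qb the diets did not overlap within F or within M, although the levels of F on black rice overlapped those of M on control diet. The share of all genes without overlap was not counted within a code, so nothing is read from such a separation. The difference over both codes was -0.73 (SE 0.20) for C1qb, -0.76 (SE 0.24) for C1qc and -0.51 (SE 0.20) for C1qa, with an edgeR adjusted p of 1.0 for each over 21895 genes. It was -0.85 (SE 0.30) for C1qa in F and -0.16 (SE 0.26) in M, and the difference between the codes did not pass (edgeR adjusted p at least 0.317 over the 10 genes). Over 19 alternative settings, all 12 libraries among them, the diet difference over both codes changed in size. It ran from -0.93 to -0.11 for C1qb, from -0.92 to -0.29 for C1qc and from -0.74 to -0.06 for C1qa.

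In the third set C1qb measured 35.9, 26.4, 22.5 and 22.4 CPM on black rice and 39.2, 64.4, 32.2 and 30.4 CPM on control diet. The highest black rice library lay above the lowest 2 control libraries, and the highest value was that of control replicate 2. The difference was -0.63 for C1qb (SE 0.26), -0.63 for C1qa (SE 0.25) and -0.49 for C1qc (SE 0.23), with edgeR adjusted p no smaller than 0.546. The share of each chain in the summed C1q level was steadier in some groups than in others. Of that sum, C1qb made up 40.5 ± 1.78% in black rice F and 40.4 ± 1.20% in control F of the Apc set (SD, n = 3 each), and 43.0 ± 4.40% and 43.5 ± 3.10% on the diets of the third set (n = 4 each). Within the third set it ran from 37.4 to 48.1% on black rice. In AOM M, C1qa made up 44.2, 44.3 and 35.0% on black rice, against 33.7 ± 1.73% on control diet (SD, n = 3), and C1qc made up 16.5, 12.8 and 20.6%, against 20.4 ± 2.06%. Replicates 1 and 2 of that black rice group carried the higher C1qa and lower C1qc shares, and replicate 3 lay among the controls.

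Adgre1 and Csf1r, a surface receptor of mature macrophages and the receptor for their growth factors, lay in the same direction as C1q in all 3 sets, with overlap in most. Adgre1 (ENSMUSG00000004730) measured 5.19, 5.47, 3.73 and 4.68 CPM on black rice in the third set and 7.58, 6.83, 6.18 and 5.96 CPM on control diet. Every black rice library lay below every control library, and the log2 difference was -0.48 (SE 0.16). Adgre1 was the only one of the 10 genes without overlap in the third set, where 2.82% of 20831 genes were lower without overlap. Among AOM libraries it differed by -0.62 (SE 0.27), with black rice M at 2.95, 1.16 and 2.51 CPM below all other libraries. No share over all genes was counted for that order. In the Apc set its difference was -0.55 (SE 0.35).

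Csf1r (ENSMUSG00000024621) differed by -0.40 (SE 0.25) in the Apc set, -0.58 (SE 0.21) in the AOM set and -0.41 (SE 0.18) in the third set. Its means in the third set were 14.9 ± 3.13 and 19.8 ± 3.28 CPM (SD, n = 4 each) on black rice and control diet. Cd68 (ENSMUSG00000018774), a membrane glycoprotein of lysosomes, differed by -0.71 (SE 0.31) in the AOM set, but by -0.26 (SE 0.28) in the Apc set and -0.19 (SE 0.18) in the third set, about as much as the standard error. With all 12 AOM libraries the Csf1r difference was 0.064 (SE 0.41). The growth factors that bind Csf1r did not pass either. Csf1 differed by 0.10 (SE 0.19), -0.42 (SE 0.25) and 0.00 (SE 0.19) in the Apc set, the AOM set and the third set, and Il34 by 0.21 (SE 0.27), -0.50 (SE 0.27) and -0.24 (SE 0.27).

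**Figure D2:**
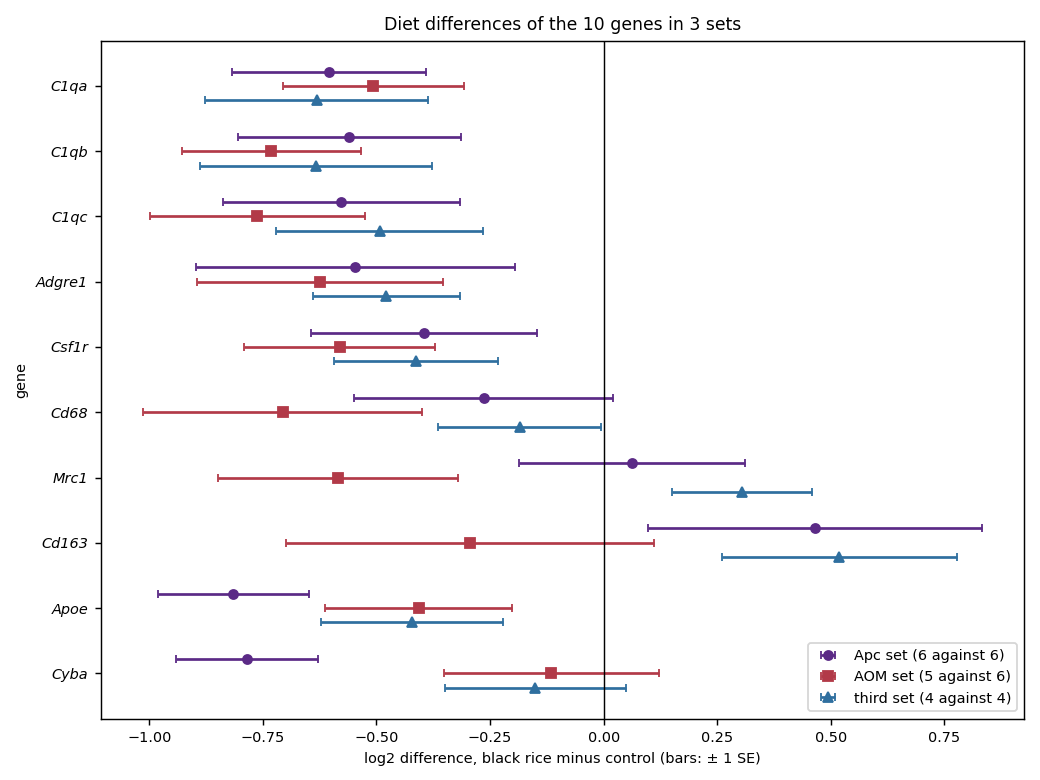
Log2 differences of the 10 genes, black rice minus control, with bars of 1 SE in the Apc set (6 against 6 libraries), the AOM set (5 against 6) and the third set (4 against 4). The C1q genes, Adgre1, Csf1r and Cd68 lie below 0 in each set, whereas Cd163 reaches 0.47 in the Apc set and 0.52 in the third set.

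Both scavenger receptors had positive differences, opposite in sign to those of C1q, in the Apc F libraries and in the third set. Their differences were negative in Apc M and, averaged over the codes, in the AOM set. Within AOM F they were positive, at 0.13 (SE 0.39) for Mrc1 and 0.16 (SE 0.59) for Cd163. Within AOM M they were -1.30 (SE 0.36) and -0.75 (SE 0.55). Cd163 (ENSMUSG00000008845), the receptor for haemoglobin bound to haptoglobin, measured 14.2, 33.0 and 10.4 CPM in the black rice F libraries of the Apc set and 8.33, 6.94 and 8.71 CPM in the control F libraries. All 3 black rice F libraries lay above all 3 controls, and the share of all genes doing so within F was not counted. In M the black rice libraries gave 3.24, 10.7 and 17.8 CPM around controls of 11.8, 12.7 and 15.4 CPM, and the diets overlapped. The diet difference was 1.26 (SE 0.53) in F and -0.33 (SE 0.52) in M. The F difference exceeded the M difference by 1.60 (SE 0.74), which did not pass the threshold (edgeR adjusted p = 0.555).

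In the third set Cd163 measured 2.92, 2.69, 3.54 and 5.74 CPM on black rice and 2.20, 2.64, 3.12 and 2.45 CPM on control diet. The difference was 0.52 (SE 0.26), and the groups overlapped. Cd163 was low in the AOM set, where it ranged from 0.267 to 0.991 CPM over 11 libraries and differed by -0.29 (SE 0.41). With all 12 libraries that difference was 1.60 (SE 0.87), and the added library stood at 13.8 CPM by raw totals. Of the 24 genes of macrophage identity, 21 passed the filter in the AOM set. Vsig4, Cd209b and Cd209f did not.

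Mrc1 (ENSMUSG00000026712), the mannose receptor, measured 29.8, 55.3 and 23.9 CPM on black rice in the Apc F libraries and 27.8, 23.4 and 29.2 CPM on control diet. Its Apc difference over both codes was 0.063 (SE 0.25). It was -0.16 without black rice M replicate 3 and -0.14 without black rice F replicate 2. In the third set it measured 11.5, 12.2, 9.09 and 12.2 CPM on black rice and 11, 8.06, 9.50 and 7.86 CPM on control diet, a difference of 0.30 (SE 0.15, edgeR adjusted p between 0.546 and 0.876 for all 10 genes). The groups overlapped there.

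AOM libraries gave unlike values of Mrc1 in the F and M codes. Black rice F libraries measured 15.5 and 15.5 CPM and control F libraries 17.2, 12.7 and 12.8 CPM. The black rice M libraries measured 4.26, 3.03 and 7.25 CPM, all below the control M libraries at 9.63, 8.87 and 17.3 CPM. How many of all genes did so within M was not counted. Over both codes the difference was -0.59 (SE 0.26, edgeR adjusted p = 1.0), between those of C1qa and C1qb. It was 0.13 (SE 0.39) in F and -1.30 (SE 0.36) in M. The difference between these was 1.42 (SE 0.52), with an edgeR adjusted p of 0.317, or 0.0799 with the replicate number as a block.

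Set against C1q within each library, Mrc1 was relatively higher on black rice in several groups. Per 100 CPM of summed C1q, Mrc1 stood at 21.1 to 27 CPM in black rice F and 11 to 15.2 CPM in control F of the Apc set. The third set gave 14.1 to 20.3 CPM per 100 CPM on black rice and 5.89 to 13.2 on control diet. Neither pair overlapped. In Apc M the values did overlap, at 16.9 to 24.0 on black rice and 12.8 to 19.4 on control diet. In AOM M the order was the reverse, with 5.25 to 9.37 on black rice and 10.4 to 15.3 on control diet. Cd163 per 100 CPM of C1q ran from 9.84 to 16.1 CPM in black rice F and from 3.30 to 4.49 CPM in control F of the Apc set. It overlapped in Apc M, at 8.19 ± 4.10 against 6.93 ± 1.87 (SD, n = 3 each), and in the third set, at 3.58 to 9.60 against 1.93 to 4.34. In AOM M it was 0.459 ± 0.0846 on black rice and 0.592 ± 0.292 on control diet (SD, n = 3 each). In AOM F it was 0.267 and 1.12 on black rice and 0.126 to 0.542 on control diet, with overlap. These ratios are a description of genes already selected, and no test was made on them. The share of all genes whose ratio to C1q did not overlap was not counted, so nothing is read from such a separation.

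**Figure D3:**
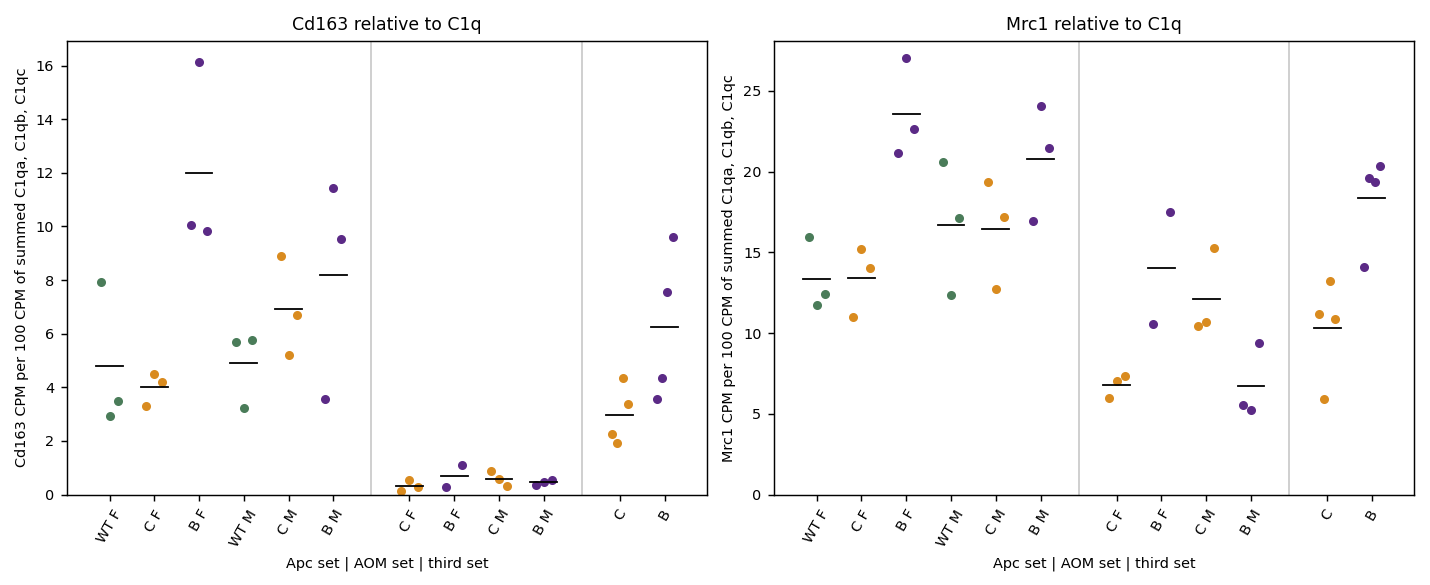
Cd163 (left) and Mrc1 (right) in CPM per 100 CPM of summed C1qa, C1qb and C1qc in each library, by group, with bars at group means. Mrc1 stands at 14.1 to 20.3 on black rice and 5.89 to 13.2 on control diet in the third set. The order is the reverse in AOM M but not in AOM F.

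Apoe and Cyba were picked for the Apc difference. Apoe (ENSMUSG00000002985) ran from 198 to 329 CPM on black rice, median 265 CPM, and from 386 to 539 CPM on control diet, median 487 CPM (n = 6 each). Cyba (ENSMUSG00000006519), the membrane subunit that phagocyte and epithelial NADPH oxidases share, ran from 19.9 to 30.1 CPM, median 25.2 CPM, and from 38.5 to 56.7 CPM, median 39.6 CPM. Neither gene overlapped between the diets. They were 2 of the 10 genes without overlap, in a set where 0.393% of 21624 genes were lower without overlap, which is how they were selected. The differences were -0.81 (SE 0.17) and -0.78 (SE 0.16), and the next lowest of the 10 genes was C1qa at -0.60. In that comparison edgeR called 3 genes, 0.0139% of all, DESeq2 202 and limma-voom 17.

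In the libraries the choice did not use, Apoe was lower on black rice by less than in the Apc set. It measured 603 and 338 CPM in AOM black rice F, 316, 307 and 266 CPM in black rice M, 947, 674 and 528 CPM in control F and 305, 365 and 355 CPM in control M. In the third set it measured 197, 174, 150 and 189 CPM on black rice and 249.2, 332, 204 and 166 CPM on control diet. The diets overlapped in both sets. The differences were -0.41 (SE 0.21) in the AOM set and -0.42 (SE 0.20) in the third set, and neither passed the threshold (edgeR adjusted p = 1.0 and at least 0.546). With all 12 AOM libraries the Apoe difference was 1.83 (SE 0.88).

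Cyba did not show its Apc difference elsewhere. In the AOM set it measured 115 and 45.6 CPM in black rice F and 113, 108 and 73.2 CPM in control F, with 70.6 to 75.0 CPM and 59 to 90 CPM in M. The difference was -0.11 (SE 0.24) in the AOM set and -0.15 (SE 0.20) in the third set, each within its standard error. Of the 12 other oxidase genes on the list, 9 had lower means with black rice in the Apc set, 9 in the AOM set and 10 in the third set. None passed the threshold, with Rac2 (-0.85, SE 0.28) and Ncf4 (-0.70, SE 0.27) lowest by p in the Apc set. Cybb, which encodes the catalytic partner of Cyba in phagocytes, had a difference of -0.81 (SE 0.34) in the AOM set.

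Over the 10 genes together, 10 of 10 were lower on black rice in the AOM set, with a median of -0.58 against -0.02 for all genes. edgeR called 0 of the 10 and 0.0% of 21895 genes. At an unadjusted p under 0.05 it counted 6 of the 10 as lower, against 2.31% of all genes, and 671 genes in either direction. DESeq2 called 13 genes and limma-voom 0 in that comparison, none of the 10 among them. With all 12 libraries 7 of 10 were lower, with 0 at an unadjusted p under 0.05. That count was 2 without black rice F replicate 2, black rice M replicate 2 or control M replicate 3, and 3 without control F replicate 1. Markers of several other cells were also lower on black rice in this comparison. All 8 B and plasma genes were lower (median -1.32, 5 at an unadjusted p under 0.05), as were all 8 T and NK genes (median -0.50) and all 5 erythroid genes (median -1.20, 3 unadjusted). Of 6 hepatocyte genes tested 5 were lower (median -0.90, 3 unadjusted), with medians of 0.29 in F and -2.02 in M. All 5 fat cell genes were lower (median -0.98), whereas 7 of 9 epithelial genes were higher (median 0.04). The B and plasma sum ran from 1654 to 3419 CPM on black rice and from 1589 to 10615 CPM on control diet, the T and NK sum from 9.06 to 29.2 and from 16.7 to 79.9 CPM, and the erythroid sum from 19.4 to 49.3 and from 17.7 to 186 CPM. None of these genes passed the threshold, and their part in the difference was not tested. No B, plasma, T, NK or erythroid gene was at 0 throughout a group.

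In the third set 8 of 10 were lower, with a median of -0.42 against 0.01 for all genes. edgeR called 0 of the 10 and 0.0% of 20831 genes. C1qa, C1qb, Adgre1 and Csf1r, 4 of the 10, were lower at an unadjusted p under 0.05, against 3.81% of all genes, with 1653 genes in either direction. DESeq2 called 136 genes and limma-voom 2, again none of the 10. The 4 became 1 without any of black rice replicate 2 or 3 or control replicate 1 or 2, and 2 without black rice replicate 4. They became 6 without black rice replicate 1 or control replicate 4, and 5 without control replicate 3. The count was also 6 without the low-count filter or with the smooth muscle covariate. All 9 epithelial genes were lower on black rice there (median -0.28, 3 at an unadjusted p under 0.05), with a sum of 12814 to 15550 CPM against 16295 to 18228 CPM on control diet and no overlap. All 5 fat cell genes were higher (median 1.36, 4 unadjusted), with a sum of 16.8 to 31.5 CPM against 12.8 to 18.6 CPM. None passed the threshold, none was at 0 throughout a group, and their part in the difference was not tested.

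Other macrophage identity genes lay on the same side. Of 24 tested in the Apc set 18 were lower on black rice (median -0.51), of 21 tested in the AOM set 19 were lower (median -0.45), and of 21 in the third set 19 were lower (median -0.36). None passed the threshold. By p, Cx3cr1 (-0.87, SE 0.25) and Ms4a7 (-0.72, SE 0.24) led in the Apc set, Timd4 (-2.55, SE 0.71) and Spi1 (-0.81, SE 0.29) in the AOM set, and Fcgr1 (-0.89, SE 0.25) and Siglec1 (-1.53, SE 0.44) in the third set. Cx3cr1 is a chemokine receptor of gut macrophages, Spi1 encodes PU.1, and Fcgr1 encodes an antibody receptor. Of 6 monocyte genes, 2 were lower in the Apc set, 6 in the AOM set and 3 of the 5 tested in the third set.

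The rest of the complement list was not lower as a group in the Apc set, where 10 of 15 genes lay lower with a median of -0.05. Among AOM libraries 15 of 15 lay lower (median -0.40), led by C3ar1, the receptor for the C3a fragment, at -0.63 (SE 0.24). The third set gave 11 of 15 lower (median -0.10) and C3ar1 again at -0.63 (SE 0.18). None passed the threshold. Among 13 other apolipoprotein and lipid genes of the Apc set, 9 were lower on black rice, with a median of -0.13. The lipid sensor Nr1h3 came first by p there, at -0.56 (SE 0.22), and did not pass. Of the 13 in the AOM set 9 were lower and of 12 in the third set 10.

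Markers of other cells also moved with diet in the Apc set. All 10 smooth muscle genes were higher on black rice, with a median difference of 0.45, and their summed level ran from 3453 to 6371 CPM on black rice and from 2717 to 4089 CPM on control diet. All 8 T and NK genes and all 8 B and plasma genes were lower, with medians of -0.88 and -1.32. With the smooth muscle level as a covariate the Apc differences were 0.032 for Cd68, -0.10 for Csf1r and -0.19 for Adgre1. With it those of C1qa, C1qb and C1qc were -0.48 (SE 0.26), -0.42 (SE 0.30) and -0.38 (SE 0.31), those of Apoe and Cyba -0.66 (SE 0.20) and -0.64 (SE 0.19), and those of Mrc1 and Cd163 0.39 (SE 0.27) and 0.75 (SE 0.43). The median over the 10 genes went from -0.55 to -0.28. In the AOM set and in the third set 4 of 10 smooth muscle genes were higher. None of the smooth muscle, T, NK, B or plasma genes was at 0 throughout a group, and their part in the differences was not tested.

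Against WT, the control libraries of the Apc set were higher for all 10 genes on average over the codes, by 0.24 to 0.66 on the log2 scale. Within M this did not hold for C1q, Cd68 or Mrc1, and Csf1r covered nearly the same range in both arms. The summed C1q level was 205 ± 49.1 CPM on control diet and 125 ± 21.9 CPM in WT in F (SD, n = 3 each). In M it was 203 ± 60.8 CPM on control diet and 212 ± 60.8 CPM in WT (SD, n = 3 each). Cd68 in M measured 10.7, 18.6 and 14.9 CPM on control diet and 22.2, 18.4 and 9.69 CPM in WT. Mrc1 in M measured 25.8, 31.2 and 39.7 CPM on control diet and 46.9, 32.5 and 24.7 CPM in WT. Csf1r in M ran from 24.8 to 44.6 CPM on control diet and from 22.2 to 46.4 CPM in WT. Adgre1 differed most, by 0.66 (SE 0.35), from 10.2 ± 4.45 CPM in WT to 15.2 ± 5.98 CPM on control diet (SD, n = 6 each). Of the 8 genes other than Apoe and Cyba, edgeR called 0, with an adjusted p of 0.999 for each and 0 at an unadjusted p under 0.05. It called 0.0% of all genes, where 918 had an unadjusted p under 0.05. DESeq2 called 24 and limma-voom 0. Markers of other cells differed in the same comparison. All 5 erythroid genes were higher on control diet than in WT (median 1.82, 5 at an unadjusted p under 0.05), as were 5 of 6 neutrophil genes (median 1.54, 3 unadjusted), 7 of 8 hepatocyte genes (median 0.83, 5 unadjusted) and all 8 T and NK genes (median 0.66, 2 unadjusted). All 10 smooth muscle genes were lower (median -0.32, 2 unadjusted). The erythroid sum ran from 6.87 to 148 CPM on control diet and from 7.57 to 45.5 CPM in WT, the neutrophil sum from 6.09 to 126 and from 34.4 to 182 CPM, the hepatocyte sum from 60.8 to 189 and from 54.5 to 145 CPM, the T and NK sum from 35.6 to 89.6 and from 31.8 to 44.4 CPM, and the smooth muscle sum from 2717 to 4089 and from 3035 to 5731 CPM. For the neutrophil and hepatocyte lists the median library sum was lower on control diet (62.5 and 112 CPM) than in WT (73.7 and 117 CPM), against the sign of the median gene. None of these genes passed the threshold. With the smooth muscle level as a covariate the median of the 10 genes went from 0.31 to 0.15, and the part of the other markers was not tested. The same control libraries entered the diet comparison, so these values do not stand apart from it.

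Averaged over the codes, black rice libraries lay below WT for the C1q genes, but the codes went opposite ways. In F the summed C1q level was 151 ± 50.1 CPM on black rice and 125 ± 21.9 CPM in WT (SD, n = 3 each). In M it was 124 ± 54.9 CPM on black rice and 212 ± 60.8 CPM in WT (SD, n = 3 each). C1qa differed from WT by -0.37 (SE 0.21), C1qb by -0.21 (SE 0.24) and C1qc by -0.17 (SE 0.26), where the control libraries differed by 0.24 (SE 0.21), 0.35 (SE 0.24) and 0.41 (SE 0.26). Apoe, at 269 ± 52.3 CPM on black rice and 389 ± 82.6 CPM in WT, differed by -0.53 (SE 0.17), and Cyba by -0.51 (SE 0.16). The selection used the black rice libraries, so Apoe and Cyba are given here without a test. Cd163 was above WT by 0.89 (SE 0.37, edgeR adjusted p no smaller than 0.590) and was the 1 of the other 8 with an unadjusted p under 0.05. edgeR called 0 of the 8 and 0.0139% of all genes, with 1767 at an unadjusted p under 0.05. DESeq2 called 72 genes and limma-voom 0.

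The difference of the diet effect between F and M was also read for all 10 genes. edgeR called 0 of the 10 and 0.0% of genes in the Apc set, with 1923 genes at an unadjusted p under 0.05. DESeq2 called 132 and limma-voom 19. It called 0 of the 10 and 0.0% of genes in the AOM set, where 3063 genes had an unadjusted p under 0.05. DESeq2 called 175 and limma-voom 0 there. In these main fits Cd163 in the Apc set and Mrc1 in the AOM set were the single genes of the 10 at an unadjusted p under 0.05. With all 12 AOM libraries the median over the 10 genes went from -0.09 to 1.13. Of the 10, 9 were then positive, 3 of them at an unadjusted p under 0.05.

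Between codes, all 10 genes were higher in F than in M in the AOM set, by 0.30 for Cyba to 1.07 for C1qc. The median was 0.92, against -0.01 for all genes, and 1.47 with all 12 libraries. Adgre1 measured 4.79 to 9.08 CPM in 5 F libraries and 1.16 to 4.77 CPM in 6 M libraries, and was the 1 gene of the 10 without overlap, where 0.338% of all genes were higher without overlap. C1qb ran from 40.1 to 133 CPM in F, median 79.4 CPM, and from 24.8 to 51.4 CPM in M, median 36.7 CPM, with overlap. Apoe ran from 338 to 947 CPM in F and from 266 to 365 CPM in M.

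edgeR called 0 of the 10 in that comparison, with a smallest adjusted p of 0.479, and 0.0365% of all genes. At an unadjusted p under 0.05 it counted 8 of the 10, against 5.6% of all genes as higher and 1848 genes in either direction. DESeq2 called 74 genes, among them C1qb (adjusted p = 0.00834), C1qc (0.0262), Apoe (0.0432) and Adgre1 (0.0432), and limma-voom called 7. The other macrophage identity genes were higher in F for 17 of 21, with a median of 0.82.

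Markers of several other cell types moved with the code as well. Of the fat cell list 4 of 5 genes were higher in F (median 3.42), with a summed level of 3.99 to 333 CPM in F and 6.15 to 43.6 CPM in M. All 8 B and plasma genes and all 8 T and NK genes were higher in F (medians 1.28 and 0.92), and all 9 epithelial genes were lower (median -0.40). The epithelial sum ran from 9781 to 12324 CPM in F and from 8325 to 17912 CPM in M. Their part in the difference was not tested.

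In the Apc set the 10 genes showed no such difference between the codes over the 3 arms. Of the 10, 9 were lower in F, down to -0.28 for Mrc1, and Cyba differed by 0.092. edgeR called 0 of the 10, with 0 at an unadjusted p under 0.05, and 0.074% of all genes, with 3259 at an unadjusted p under 0.05. DESeq2 called 528 genes and limma-voom 128. Whether the code difference itself differed between the sets was not tested.

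Within groups, the 10 genes varied together from library to library to different degrees. The likeness used was Pearson's r with the mean of the 3 C1q genes on log2 CPM, after the mean of each group was removed. Csf1r had r of 0.90 over 18 Apc libraries, 0.91 over 11 AOM libraries and 0.86 over 8 libraries of the third set. Cd68 followed with 0.92, 0.77 and 0.73, Adgre1 with 0.90, 0.61 and 0.70, and Apoe with 0.85, 0.69 and 0.90. Cyba gave 0.59, 0.76 and 0.70. Mrc1 gave 0.83 in the Apc set, 0.69 in the AOM set and 0.25 in the third set.

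Cd163 gave 0.61, -0.56 and -0.25 in the same order. The libraries share depth, tissue makeup and normalisation, so r is a description. The median r of all genes was 0.00, 0.02 and 0.08 in the 3 sets, and that of the macrophage identity list was 0.70, 0.63 and 0.62. Outside the 10 genes, those most like C1q over the Apc libraries were Clec4a2 (r = 0.95), Sirpa (0.94), Akt2 (0.93), Selplg (0.93), Fcer1g (0.93), C3ar1 (0.92), H2-Ab1 (0.92), H2-Eb1 (0.92), Cd300c2 (0.92) and H2-DMa (0.92). Fcer1g kept an r of 0.86 in the AOM set and 0.92 in the third set, whereas Akt2 had 0.33 and 0.65.

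**Figure D4:**
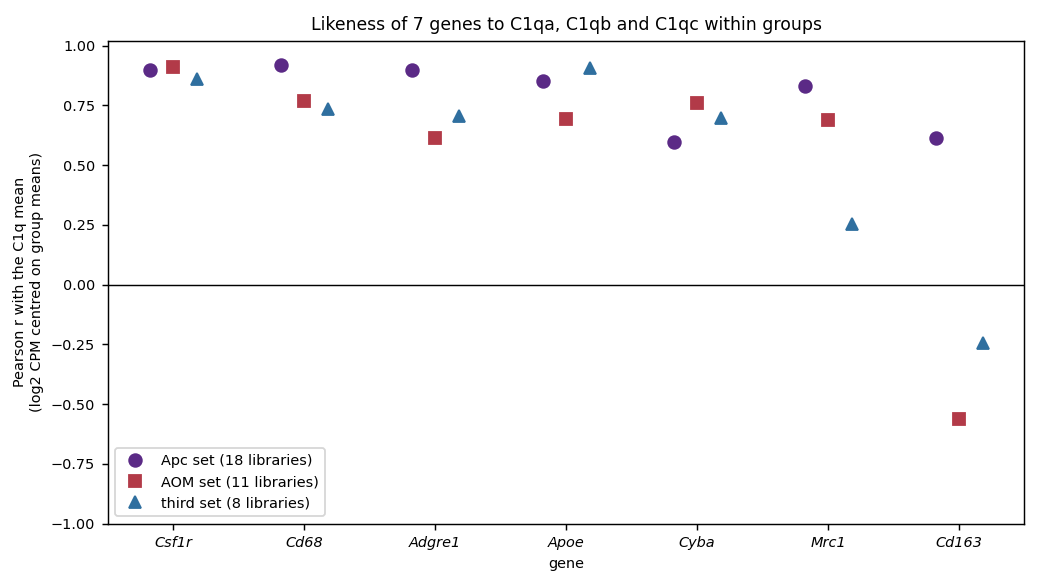
Pearson r of 7 genes with the mean of C1qa, C1qb and C1qc, on log2 CPM centred on group means, in the Apc set (18 libraries), the AOM set (11) and the third set (8). Csf1r lies between 0.86 and 0.91 in all 3 sets, and Cd163 goes from 0.61 in the Apc set to -0.56 in the AOM set.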

How the data were processed

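RNA from 38 libraries of intestinal tract was captured by oligo(dT) and sequenced on the DNBSEQ platform, per the labels' protocols. The authors deposited raw counts per gene in 3 tables, not normalised. For all but the Apc table, counting was by featureCounts 2.0.1 on Ensembl 104 exons in paired-end mode, per the file headers. The submitters' processing notes name fastp, HISAT2 and GRCm39, with versions not given.

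Each table was fitted with edgeR 4.0.16 in R 4.3.3 (filterByExpr, TMM, two-sided quasi-likelihood tests over group means, Benjamini-Hochberg over all genes, adjusted p under 0.05). The AOM fit used 11 libraries. Diet differences were averaged over F and M. CPM use TMM library sizes, and log2 CPM a prior count of 2. Exon lengths came from the GENCODE annotation of GRCm38, another build than that of the counts, so they approximate. Fits were tested on simulated data. None of 42 pairs of libraries within groups was identical.

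The members and lists were chosen with earlier results of these data known. All 10 members are named. List genes are those past the threshold or otherwise the first by p in a comparison, except that some such genes are not reported here by name, and the most C1q-like genes are the first 10 by r among named genes whose log2 CPM averaged 1 or more. Lists also covered dendritic cells, neutrophils, fibroblasts, glia, erythroid cells and hepatocytes; none of their genes passed in any comparison. Alternatives were DESeq2 1.42.0, limma-voom (limma 3.58.1) with quality weights, RLE size factors, no or a stricter low-count filter, a smooth muscle covariate, a replicate block, only the compared groups, and each library left out.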

Additional observations from a re-analysis of the deposited data

Results flagged for a closer look

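The AOM black rice F library left out of all comparisons, replicate 3, carried signal of these genes above the highest control library. Scaled by raw totals, Apoe stood at 14194 CPM against at most 972 CPM in control libraries, Cd163 at 13.8 CPM against 1.01 CPM, Csf1r at 55.3 CPM against 43.8 CPM and Mrc1 at 32.0 CPM against 20.0 CPM. The other 6 genes were at or below the highest control library on that scale, among them C1qb at 125 CPM against 137 CPM and Cyba at 11 CPM against 116 CPM. With TMM library sizes 9 of the 10 genes stood above the controls, Cyba excepted, and raw totals were chosen for these values after both were seen. Alb, made by hepatocytes, was at 166015 CPM in this library. Its part in these levels was not tested.

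In the 20 group values of 4 libraries checked in the third set, no library stood far from the other 3 by Dixon's test (0 of 20), where chance would give about 1 in 20.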

How the results depend on the processing

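Of 1055 values of members compared with the main fit under 46 settings, 1038 kept their direction and their side of the threshold, or moved by less than the spread. No member was called in a main fit, so a tested value could move far and still count as kept. With all 12 AOM libraries, for example, the median diet difference of the 10 genes went from -0.58 to -0.09. DESeq2 counted 2 of the 10 genes, and 202 of 21624, in the Apc diet comparison. The 2 are Apoe and Cyba, which were selected on it, so nothing is read from that count. It called 4 in the AOM comparison of F with M, C1qb at 0.98, C1qc at 1.05, Adgre1 at 1.04 and Apoe at 0.85. The cause was not tested. With a smooth muscle covariate, Cd68 was at 0.032 in the Apc diet comparison and at -0.0023 in control against WT. With all 12 AOM libraries the diet difference was 0.064 for Csf1r, 1.83 for Apoe and 1.60 for Cd163. Leaving out 1 library, Mrc1 ranged from -0.16 to 0.20 in the Apc diet comparison, and Cyba from -0.52 to 0.15 in the AOM diet comparison and from -0.11 to 0.56 between F and M. The sign turned for Cyba without AOM black rice F replicate 2 (0.15) or control M replicate 3 (0.0075), and between codes without black rice F replicate 1.

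Counts over all genes moved more. Called genes numbered 23 in the Apc diet comparison, 6 in its interaction and 6 in black rice against WT without the low-count filter. Apc F against M gave 42 with the smooth muscle covariate, 10 with the block and 10 to 67 without 1 library. With the covariate 0 genes passed in the Apc diet comparison. With only the compared groups the Apc diet count was 1, and black rice against WT gave 0 then, with RLE factors, the covariate or the block. Without 1 library the ranges were 1 to 6 for the Apc diet, 0 to 7 for its interaction, 0 to 2 for black rice against WT and 0 to 1 for the third set.

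With the replicate block 0 of the 10 genes were called in each comparison, C1qb differed by -0.57, -0.73 and -0.59 with diet in the Apc set, the AOM set and the third set, and it changed no other member's call. Same-numbered libraries correlated between -0.60 and 0.45, which does not settle whether the numbers pair the samples. The block gave 203 genes in the AOM interaction, against 0. Depth limits mostly Cd163 in the AOM set.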
